A study of Homo sapiens with 6 samples.

Results

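Thymidine glycol (Tg) sites in the interior of human chromosomes 16 and 17 were taken from the 2 deposited site lists of a genome-wide map in HEK293T cells. A site was counted when it lay on either chromosome with its midpoint at least 5 Mb from both chromosome ends on the hg38 build. This rule kept 794 of the 13061 sites of both lists, namely 239 of the 3688 listed in wild type and 555 of the 9373 listed in the double knockout. HEK293T is an established line derived from human embryonic kidney that carries the SV40 large T antigen. The series compared wild-type HEK293T cells with NTHL1 and NEIL1 double-knockout cells of the same line, without any treatment in either group. The labels list 2 labelled libraries per genotype and 2 input libraries, and the authors deposited 1 site list per genotype. There was therefore no spread between replicates and no p-value for a comparison between genotypes. Whether the knockout cells came from a single clone is not given in the sources used here.

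Tg is a thymine base that has been oxidised and saturated across its ring, which blocks many DNA polymerases. NTHL1 and NEIL1 are DNA glycosylases that recognise such oxidised pyrimidines, cut out the base and so begin base excision repair. In DPC-Seq the NTHL1 protein is trapped on the DNA where it has removed a base, so the reads mark fragments that carried a substrate of NTHL1. Chromosome 16 carries the metallothionein and cadherin genes and a large block of heterochromatin beside its centromere, whereas chromosome 17 is gene-rich and carries the HOXB and type I keratin clusters.

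Few of the sites touched the promoter sequence held in RefSeq, so those sequences are shown first for the sites where the bases can be read. A promoter window was the 250 bases before and 50 bases after a gene's start, and the 2282 windows inside both chromosomes covered 0.397% of their length. Of the 239 wild-type sites, 2 overlapped a window (0.837%, against 0.857% of all wild-type sites on chromosomes 1 to 22 and X). Of the 555 double-knockout sites, 4 did (0.721%, against 0.765% of all double-knockout sites on those chromosomes). The share of sites in these windows was thus close to that of the whole lists. All of the overlaps were on chromosome 17, at ASIC2, SEPTIN9 and a pair of long non-coding RNA genes, LOC102724625 and LOC105371841. The 250 upstream bases of the ASIC2, LOC102724625 and SEPTIN9 starts are given 5′ to 3′ on the strand of the gene, from RefSeq on GRCh38.p14. Capitals mark the bases that lie inside the double-knockout site.
ASIC2: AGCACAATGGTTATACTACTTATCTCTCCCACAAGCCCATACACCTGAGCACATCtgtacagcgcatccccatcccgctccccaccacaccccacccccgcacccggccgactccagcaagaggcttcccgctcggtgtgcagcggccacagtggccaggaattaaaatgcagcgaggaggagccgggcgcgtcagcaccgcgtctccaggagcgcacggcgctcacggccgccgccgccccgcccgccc
LOC102724625: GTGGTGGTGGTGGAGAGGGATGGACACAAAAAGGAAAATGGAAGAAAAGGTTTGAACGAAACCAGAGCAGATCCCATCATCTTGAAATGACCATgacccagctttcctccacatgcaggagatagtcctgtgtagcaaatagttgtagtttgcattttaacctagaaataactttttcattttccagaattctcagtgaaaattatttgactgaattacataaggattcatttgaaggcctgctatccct
SEPTIN9: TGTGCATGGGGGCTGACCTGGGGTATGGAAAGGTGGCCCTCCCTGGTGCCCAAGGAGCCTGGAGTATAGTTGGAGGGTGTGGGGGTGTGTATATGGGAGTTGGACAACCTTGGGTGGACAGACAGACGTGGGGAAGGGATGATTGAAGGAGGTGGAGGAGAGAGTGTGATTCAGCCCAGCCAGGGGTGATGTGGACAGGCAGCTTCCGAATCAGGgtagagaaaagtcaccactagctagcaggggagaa
The ASIC2 start used here, at chr17:33293295 on the minus strand, lies inside the annotated gene (chr17:33013087-34156768), so it belongs to a shorter transcript. The site at its far upstream edge was present in both lists, with 10 wild-type and 17 double-knockout reads, and covered 58 and 55 of the 250 upstream bases. Those 55 bases were 23.6% T and 45.5% G or C, whereas the 250 bases as a whole were 12.8% T and 66.8% G or C. The bases inside the ASIC2 site were thus richer in T than the rest of the stretch before this start. LOC102724625 (chr17:32088010-32091785) was also marked in both lists, with 4 upstream bases in the wild-type site and 94 in the double-knockout site. The double-knockout site before the internal SEPTIN9 start at chr17:77376083 covered 215 upstream bases with 12 reads and had no wild-type partner. The higher T content inside the ASIC2 site was not a general feature of these starts. Inside the double-knockout site T was lower than over the 250 bases at LOC102724625 (17.02% against 28%) and LOC105371841 (12.5% against 14.8%). At SEPTIN9 T was close to level, with 20% inside the site against 18.8%. Over all RefSeq windows the median content was 20.8% T and 58% G or C. The sequence of the other sites was not read, because it would need a genome of the build.

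A wild-type site was between 243 and 2384 bp wide with a median of 372 bp, and a double-knockout site between 256 and 2385 bp with a median of 409 bp. The authors' fold enrichment, which is the reads at the site's summit over the caller's background, had a median of 4.99 for the wild-type sites and 4.80 for those of the double knockout. The number of reads at a summit was recovered from the deposited fold and −log10 p of each site. For wild-type sites it ran from 6 to 400 with a median of 13, and for double-knockout sites from 7 to 452 with a median of 17. Most sites therefore rested on few reads, and differences at a single site were seldom larger than the counting error. Library read totals were not used, and depth was inferred from the lists. The lowest background of the double-knockout list was 1.69 times that of wild type, and reads were divided by 1.69 before they were compared. With each lowest background first divided by the narrowest site width of its list, 243 and 256 bp, the ratio was 1.61. That second ratio is called depth alone below. All intervals are 95% intervals and cover counting error only. Where intervals overlap, this does not show that the values are equal. Sites lie in clusters and amplified reads are not independent molecules, so these intervals are too narrow.

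Both chromosomes carried more sites per Mb than the other interiors together. Inside chromosomes 16 and 17 the wild-type list held 1.56 sites per Mb over 153.6 Mb, and the double-knockout list 3.61, against 0.906 and 2.65 inside the other autosomes and X. The rate was 1.72 times that of the others in wild type (interval 1.497 to 1.96), and the double-knockout rate 1.36 times (1.25 to 1.49). Among 23 interiors, chromosome 16 ranked 3 by its wild-type rate and 5 by its double-knockout rate, and chromosome 17 ranked 7 and 6. The order changed when genes were taken as the base. Chromosome 17 ranked 2 in gene density with 13.1 protein-coding genes per Mb and held 10.6 wild-type and 26.3 double-knockout sites per 100 genes. Chromosome 16 ranked 7 with 7.37 genes per Mb and held 23.1 and 51.2 sites per 100 genes.

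The double-knockout list was longer than the wild-type list by a smaller factor here than in the other interiors. Wild-type sites made up 30.1% of the sites of both lists (26.9 to 33.4), against 25.5% in the other interiors (24.6 to 26.4). The double-knockout count was 2.32 times the wild-type count, against 2.93 times in the others. Among sites with −log10 q of at least 5 the wild-type share was 23.9% (20.1 to 28.2) against 20.4%, and those intervals overlapped. Without the sites of raised background it was 28.9% (25.7 to 32.3) against 25.4%, and those intervals overlapped too. The list inferred to be deeper was also the longer in both regions, and the part of depth in the list lengths was not tested.

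Over all sites 16p had the highest rate of the arms in both lists, but in wild type that rank rested on the raised-background sites described below. The 57 wild-type sites of 16p gave 1.79 per Mb (1.36 to 2.32), the 80 of 16q 1.65 (1.31 to 2.05), the 30 of 17p 1.49 (1.01 to 2.13) and the 72 of 17q 1.35 (1.06 to 1.71). Without the 11 raised sites of 16p and the 9 of 16q, 16p fell to 1.45, below 16q at 1.46 and 17p at 1.49. None of the 6 pairs of arms had a wild-type ratio whose interval lay clear of 1. In the double knockout the 142 sites of 16p gave 4.47 per Mb (3.76 to 5.26). The other arms were close to each other, with 161 sites at 3.32 per Mb on 16q, 70 at 3.48 on 17p and 182 at 3.42 on 17q. The 16p rate was 1.35 times that of 16q (1.07 to 1.70), 1.31 times (1.03 to 1.66) without raised sites, and 1.14 times (0.901 to 1.45) without gene-free stretches over 2 Mb. It was 1.30 times that of 17q (1.04 to 1.63), 1.302 times (1.04 to 1.64) without gene-free stretches, and 1.201 times (0.951 to 1.51) without raised sites. Each of these differences was thus clear of 1 in one of those settings and within counting error in the other. Against 17p the 16p rate was 1.28 times (0.957 to 1.73), which is within counting error.

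**Figure D1:**
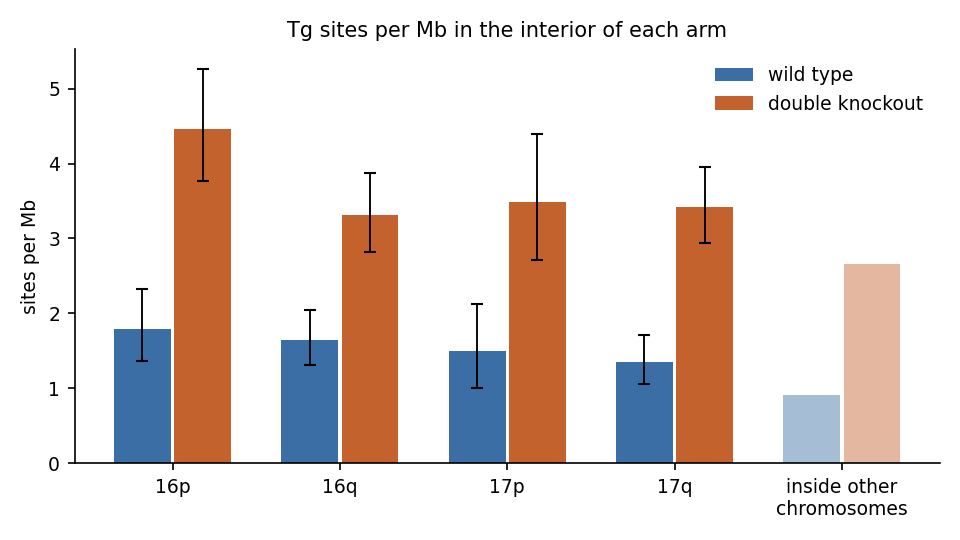
Sites per Mb (y axis) in the interior of each chromosome arm, with wild type in blue and the double knockout in orange; bars show the rate, lines its exact Poisson 95% interval, and the pale bars the other interiors. Every arm bar stands above the pale bar of its list, and 16p is the highest at 1.79 and 4.47 per Mb; its wild-type rate is 1.45 without raised sites, below 16q and 17p.

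The strongest wild-type sites of these chromosomes lay in 2 short blocks of chromosome 16 and in no annotated gene. Across most sites the recovered background was below 10 reads. It was higher at 22 sites of each list, all within 3 blocks. On 16p the block chr16:34572440-34595690 held 12 wild-type sites in 23.3 kb, of which 11 had a raised background, with 67 to 220 reads. On 16q the block chr16:46380670-46401724 held 9 sites in each list, all raised, with up to 400 and 452 reads. A pair of wild-type sites and 1 double-knockout site lay in chr17:26881170-26885998. The 10 wild-type sites of highest −log10 q were all on chromosome 16 in these blocks, led by chr16:46389537-46391024 with 400 reads and a fold of 4.28. Its double-knockout partner was also the top site of its list, with 452 reads and a fold of 3.14. The raised background goes with the high rank of these sites, and its part in that rank was not tested.

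The 1 Mb windows show how unevenly the sites were spread. Of 155 windows, 91 held sites of both lists, 29 held double-knockout sites alone, 4 held wild-type sites alone and 31 held none. The median window had 1 wild-type and 3 double-knockout sites, and the fullest had 15 and 17. The 10 fullest windows held 33.1% of the wild-type and 23.8% of the double-knockout sites. The wild-type count was the larger in 6 windows. The window of these with most sites was chr17:28000001-29000000, where FOXN1 lies, with 5 against 3 sites.

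Windows with no or few genes held fewer sites. The 45 windows with 0 to 2 protein-coding genes averaged 0.956 wild-type sites and 2.51 of the double knockout, and 0.667 and 2.22 when raised sites were left out. The 50 windows with 3 to 9 genes averaged 1.92 and 4.04, and the 60 windows with 10 or more averaged 1.67 and 4.00. Without raised sites the upper classes averaged 1.74 and 1.67 in wild type and 3.86 and 4.00 in the double knockout. The step from the first class to the next was the large one, and the upper classes were close to each other. The first class includes the windows inside the gene-free stretches chr16:36102206-46469336 and chr17:22705637-26981691, with empty runs of 7 and 3 windows. The part of these stretches in the step was not tested. The longest empty run was chr16:39000001-46000000, which is 7 windows with no protein-coding gene. Gene content alone did not mark the empty windows, since chr17:37000001-39000000 held 31 genes and chr16:15000001-17000000 held 16, and both were empty in both lists.

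Outside the raised blocks, a handful of windows stood out in both lists. Window chr16:57000001-58000000 held 17 double-knockout and 9 wild-type sites among 23 genes. There NLRC5, a transactivator of MHC class I genes, had 3 and 2 of them. The same window also holds the adhesion G-protein-coupled receptor genes ADGRG5 and ADGRG1 and the rod channel gene CNGB1. CNGB1 had 3 double-knockout sites, with 11 to 27 reads, and no wild-type site. Window chr17:74000001-75000000 held 8 wild-type sites and 17 of the double knockout, 7 and 6 of them shared, with RAB37, the Usher syndrome gene USH1G and several CD300 immune receptor genes. Window chr17:7000001-8000000 had 64 genes, the most of any, and held 7 and 10 sites, in ASGR1 and ASGR2 (the asialoglycoprotein receptor genes), NLGN2, DNAH2, POLR2A, TNFSF12, DLG4 and TNK1. Windows chr16:49000001-50000000 and chr16:81000001-82000000 each held 7 and 13 sites, led by ZNF423 in the former and CMIP in the latter. By contrast, chr16:9000001-10000000 held 1 and 8 sites, with GRIN2A, and chr17:33000001-34000000 held 1 and 7, 6 of the latter in ASIC2.

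**Figure D2:**
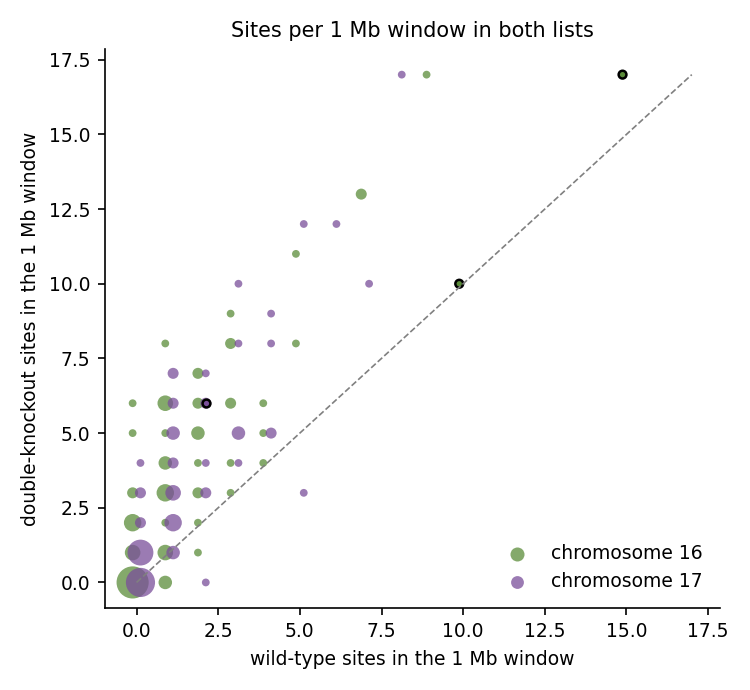
Double-knockout sites (y axis) against wild-type sites (x axis) in each of the 155 windows of 1 Mb, chromosome 16 in green and chromosome 17 in purple; the area of a dot grows with the number of windows, the chromosomes are set slightly apart sideways, a black outline marks windows with sites of raised background, and the dashed line marks equal counts. Most windows lie above the line, and the window with 15 wild-type sites holds 11 sites of raised background.

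Protein-coding genes covered 45.4% of the length and held 107 of the 239 wild-type sites (44.8%, 38.4 to 51.3), and 272 of the 555 sites of the double knockout (49.0%, 44.8 to 53.3). The position of the sites was therefore close to that of the sequence itself. The double-knockout sites of chromosome 16 stood higher, with 49.8% in genes (44.1 to 55.6) against 40.9% of length. That length includes the gene-free stretch chr16:36102206-46469336, and the share of length without it was not computed. On chromosome 17 the share was 48.0% against 50.3% of length. In the other interiors, 46.7% and 48.3% of the sites lay in genes, which covered 41.1% of length. A share above that of length was thus not particular to chromosome 16. Within 1 kb of a gene's end lay 8 wild-type sites (3.35%) and 19 double-knockout sites (3.42%), against 3.59% of length. The gene table used gives no exons, so exonic and intronic sites were not told apart.

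Of 1552 protein-coding genes inside both chromosomes, 81 held a wild-type site (5.22%, against 5.43% of genes inside chromosomes 1 to 22 and X). A double-knockout site lay in 175 (11.3%, against 13.8%). Both lists marked 72 genes. A single site was held by 63 of the 81 and 124 of the 175. There were 22 genes with at least 3 in a list, 20 of them with sites in both lists. Those 22 genes had a median length of 378 kb, against 18.1 kb for all 1552. For some of the 22 the counts are set below beside the count that the mean rate of their arm would give for their length.

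The largest count was in RBFOX1, a splicing regulator of neurons and one of the longest human genes (chr16:5239721-7713340). In RBFOX1 the wild-type list had 5 sites and the double-knockout list 14, where the arm's rate over 2474 kb gives 4.43 and 11.1. Its count was thus close to what its length gives. Only 3 RBFOX1 sites were shared, at chr16:5640659, chr16:6772699 and chr16:7361690 in the wild-type list, each with 12 wild-type reads. ASIC2, an acid-sensing sodium channel subunit, held 2 and 8 sites where the arm's rate gives 1.55 and 3.92. Both wild-type sites of ASIC2 had a double-knockout partner, and the strongest of the others, at chr17:33025523-33025892, had 25 reads and no partner. ZFHX3, a zinc-finger homeobox transcription factor, held 4 and 4 sites where the arm gives 1.83 and 3.68. WWOX, which spans a common fragile site, held 2 and 3 where the arm gives 1.83 and 3.69. CDH13, a cadherin that is anchored to the membrane by lipid, held 1 and 3 against 1.93 and 3.89. Very long genes were therefore not richer in sites than their length gives, and the 12 genes over 500 kb together held 17 and 42 sites where the rate of all genes gives 17.2 and 44.2.

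Some genes of middle length held more than their arm's rate gives. CMIP (chr16:81444808-81711762), a signalling adaptor, held 3 and 6 sites against 0.440 and 0.886. The 2 wild-type CMIP sites at chr16:81626333 and chr16:81626887 fell under a single double-knockout site of 23 reads. SDK2, a synaptic adhesion molecule of the retina, held 3 and 6 sites against 0.420 and 1.06, and all 3 wild-type sites were shared. ZNF423, a zinc-finger transcription factor, held 3 and 6 against 0.613 and 1.23, again with all 3 shared. The interval of each of these wild-type counts, 0.619 to 8.77, began just above the arm's figure. All of these genes were picked for their count, so the comparison with the arm is a description.

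PRKCB, the gene of protein kinase C beta (chr16:23835983-24220611), held 1 wild-type and 6 double-knockout sites, and none was shared. The arm's rate gives 0.689 and 1.72. The single wild-type site had 8 reads and a −log10 q of 2.17. The double-knockout sites had 13 to 20 reads, the first at chr16:23847925-23848341 with a fold of 9.33. Over both chromosomes 60.7% of wild-type sites with −log10 q up to 3.34 and 30.8% of all double-knockout sites were shared, so unshared sites were common. SNX29, a sorting nexin, also had none shared, with 1 and 4 sites where the arm's rate gives 1.07 and 2.67. The interval of its double-knockout count, 1.09 to 10.2, holds the arm's figure. MSI2, an RNA-binding regulator of stem cells, held 3 double-knockout sites of 12 to 20 reads and no wild-type site. The arm's rate gives MSI2 0.604 wild-type sites, and a count of 0 allows up to 3 by a one-sided 95% bound.

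The remaining genes of at least 3 sites lay mostly on 16p. GSG1L, an auxiliary subunit of AMPA receptors, held 2 and 4 sites, and SHISA9, another, held 1 and 4. GRIN2A, an NMDA receptor subunit, held 1 and 4, and the shared GRIN2A site had 17 wild-type and 21 double-knockout reads. RGS9, a regulator of G-protein signalling in photoreceptors, held 2 and 3, where the arm's rate gives 0.122 and 0.309. CLEC16A, HS3ST4 and SEPTIN9 each held 1 and 3, with the wild-type site shared in all of them. HS3ST4 makes a modified heparan sulfate, and SEPTIN9 encodes a cytoskeletal GTPase.

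Among the 22 genes, FOXN1 and RAB37 held the most wild-type sites per 100 kb. FOXN1, the transcription factor of thymic epithelium, held 3 wild-type sites and 2 of the double knockout within 32.6 kb (chr17:28506348-28538900), or 9.22 and 6.14 per 100 kb. The arm's rate gives FOXN1 0.0441 and 0.112 sites for its length. Of the 22 genes FOXN1 alone had more wild-type sites. The wild-type site at chr17:28510201-28510443, with 12 reads, had no partner. At the other FOXN1 sites the double-knockout reads were the higher, with 14 wild-type against 36 double-knockout reads at chr17:28516248-28516719 and 12 against 37 at chr17:28517162-28517720. After depth scaling those ratios were 1.52 (0.800 to 3.05) and 1.82 (0.929 to 3.84). Both intervals hold 1, so the difference is within counting error. RAB37, a small GTPase of secretory vesicles, held 3 and 3 sites in 76.2 kb, where the arm's rate gives 0.103 and 0.261. The strongest RAB37 site, chr17:74727892-74729136, had 23 wild-type and 34 double-knockout reads.

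**Figure D3:**
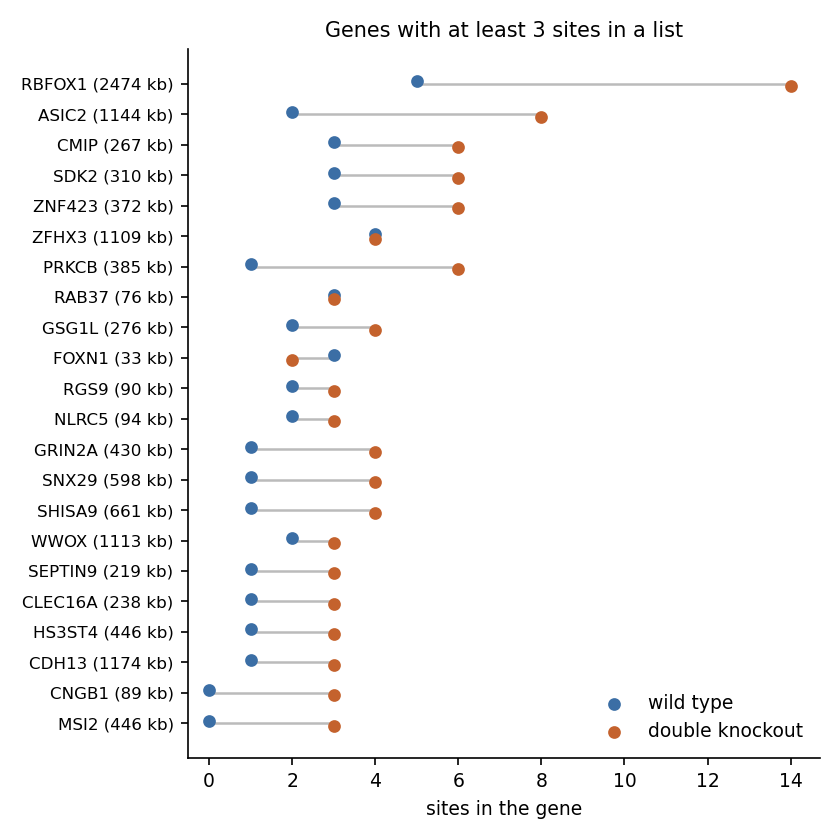
Number of sites (x axis) in each of the 22 genes with at least 3 sites in a list, with gene length in kb beside the symbol; blue points are wild type, orange points the double knockout, and grey lines join them. The double-knockout point lies to the right in 19 genes, is level in ZFHX3 and RAB37, and lies to the left in FOXN1.

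Inside both chromosomes and apart from the raised blocks, the highest −log10 q in the double knockout was at CACNG4. It encodes an auxiliary subunit of calcium channels and AMPA receptors. The CACNG4 site chr17:67025965-67026848 had 41 double-knockout and 19 wild-type reads, and a depth-scaled ratio of 1.28 (0.723 to 2.33). The next gene along, CACNG1, also held a shared site, with 13 wild-type and 25 double-knockout reads. In wild type the strongest site outside the blocks was in CDH8, a classical cadherin of the nervous system, at chr16:61768175-61768568. The CDH8 site had 18 wild-type and 24 double-knockout reads, with deposited folds of 10.9 and 11.1. COTL1, an actin-binding protein gene, followed at chr16:84578507-84579069 with 21 and 32 reads. HIRIP3, which encodes a histone-binding protein, held the site of most double-knockout reads outside the blocks, with 24 and 47 reads. COTL1 and HIRIP3 were chosen after their values were seen. All of these sites were in both lists, and none differed between the genotypes by more than the counting error.

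The gene families were read beside the counts that the mean rate of all 1552 genes gives for the same length. Channel genes had sites in 3 of 18 members by the wild-type list and 8 of 18 by the double-knockout list, 4 and 15 sites where the rate gives 2.84 and 7.30. ASIC2 alone accounts for 8 of the 15, and SCNN1B, CACNB1, KCNH4, CACNA1G and SCN4A each held 1 in the double knockout alone. Of 7 cadherin genes, CDH8, CDH13 and the endothelial CDH5 held sites, 2 and 5 in all where the rate gives 3.03 and 7.77. The 16 genes of the DNA damage response and repair held no wild-type site and 1 double-knockout site, in the RNA and DNA demethylase gene FTO, where the rate gives 1.88 and 4.82. By the same bound a count of 0 allows up to 3 sites, so the wild-type figure is within it. The 10 HOXB and 11 metallothionein genes held none in either list, but they are short and the rate gives at most 0.302 for either. Type I keratins (28 genes, with 1 site at KRT35), CC chemokines (18 genes, CCL17) and myosin heavy chains (8 genes, MYH10) each held 1 double-knockout site, where the rate gives 0.689, 0.327 and 2.14.

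Most wild-type sites recurred in the double knockout. Of 239 wild-type sites, 178 overlapped a site of the double-knockout list by 1 bp or more (74.5%, 68.5 to 79.9), against 75.3% of the whole list. Of 555 double-knockout sites, 171 were shared (30.8%, 27.0 to 34.8), against 28.3% of the whole list and 23.4% (22.4 to 24.4) in the other interiors. Without the raised sites the double-knockout share was 28.1% (24.4 to 32.2), whose lower end only just meets the interval of the other interiors. Sharing was therefore close to that of the whole lists, which include these sites. In the double knockout it was above that of the other interiors, and this difference was not tested. The 17p arm was the lowest, with 53.3% of its 30 wild-type sites shared (34.3 to 71.7). On 16p the share was 77.2% (64.2 to 87.3), on 16q 78.8% (68.2 to 87.1) and on 17q 76.4% (64.9 to 85.6). The interval of 17p overlapped each of these. Fewer wild-type sites of 17p were strong, with 7 of 30 at a −log10 q of at least 5. On 16p it was 34 of 57, on 16q 35 of 80 and on 17q 32 of 72. The part of site strength in the lower share of 17p was not tested. The 17p windows chr17:6000001-7000000, with 2 and 7 sites, and chr17:5000001-6000000, with 1 and 6, held no shared site.

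Sharing rose with the strength of the site in both lists. Sites were put into 4 groups by −log10 q over their whole list. From the weakest to the strongest group, 60.7%, 65.1%, 81.8% and 91.7% of the wild-type sites were shared. In the double knockout the shares were 8.28%, 15.7%, 30.4% and 67.4%. The strongest double-knockout group stood above the same group of the other interiors, 67.4% (59.0 to 75.03) against 54.3% (51.8 to 56.8). Without raised sites it was 62.6% (53.4 to 71.2) against 53.8% (51.3 to 56.3), and those intervals overlapped. A shared double-knockout site had a median of 23 reads and a width of 560 bp, and an unshared one 15 reads and 369 bp. The 384 unshared double-knockout sites lay a median of 151 kb from the nearest wild-type site, and 31 of them lay within 10 kb of one.

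**Figure D4:**
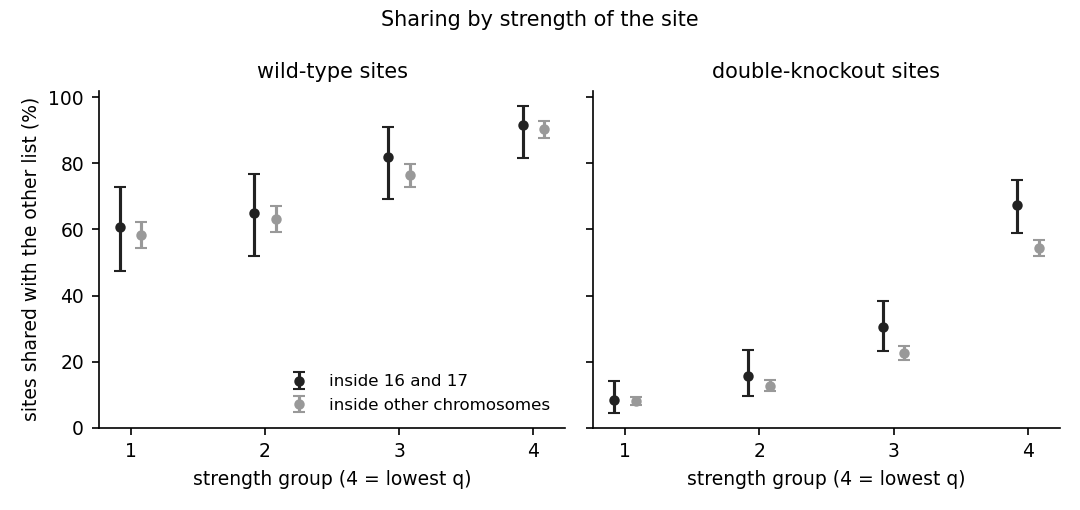
Percent of sites shared with the other list (y axis) by strength group (x axis, 4 is the lowest q), for wild-type sites on the left and double-knockout sites on the right; black points are the sites inside chromosomes 16 and 17, grey points those inside the other chromosomes, and lines are exact binomial 95% intervals. The share climbs with strength in both panels, and the black point of group 4 in the double knockout lies above the grey one, 67.4% against 54.3%, though without raised sites the intervals overlap.

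At shared sites the reads of both genotypes were close to equal after depth scaling. The median ratio of double-knockout to wild-type reads over the 178 shared wild-type sites was 0.958 (0.913 to 1), with a range of 0.499 to 2.04. Scaled by depth alone it was 1.01, so the side of 1 on which the median falls is set by the scaling. Both scalings use the same lowest backgrounds and differ by a constant from the narrowest site widths, so the second is not an independent check. The ratio was at least 1.5 at 10 sites (5.62%, against 5.08% of all shared sites) and at most 1/1.5 at 20 (11.2%, against 10.2%). Both shares were close to those of all shared sites. The 10 high sites rested on 8 to 14 wild-type reads each and included both FOXN1 sites, a ZFHX3 site and an NLGN2 site. Each wild-type site was set against the highest reads of any double-knockout site overlapping it. Wild-type sites under 1 wide double-knockout site were thus all set against its reads. The ZFHX3 site, the sites at chr16:48930529 and chr16:48931242, and the highest ratio, 2.04 at chr16:56024401, are such cases. Beside the last, chr16:56024996 had a ratio of 0.964 with the same partner. The intervals of the 10 high sites all held 1, and no member site lay above 1 by its own interval, against 0.432% of all shared sites. Below 1 by their own interval lay 20 of the 178 sites, against 79 of all 2776 shared sites (2.85%).

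All of those 20 sites were in the raised blocks. At the 21 shared sites of raised background the ratio had a median of 0.659 and ran from 0.565 to 0.921. It was below 1 at each of the 21, and 19 of the 20 sites whose interval lay below 1 were among them. The other was a site inside the 16p block, chr16:34576283, with a background under 10 reads. The depth-scaled background at the 21 sites had a median ratio of 0.960 between the lists, so the reads at the summit were lower in the double knockout while the background was nearly level. The deposited fold was lower in the double knockout at 21 of 21 sites, with medians of 2.85 against 4.28. The 19 raised shared sites of the other interiors had a median ratio of 0.669. At the 157 shared sites outside the raised group the median was 0.985.

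**Figure D5:**
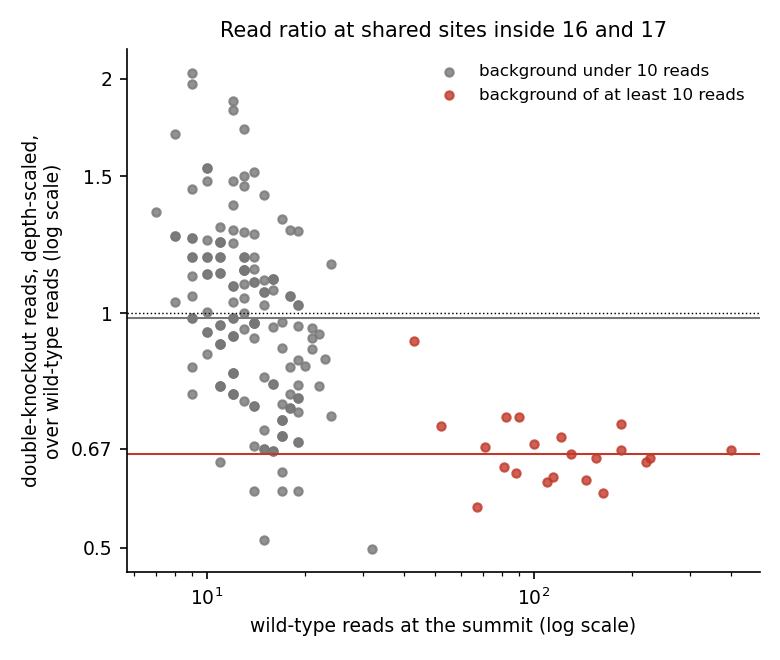
Ratio of depth-scaled double-knockout reads to wild-type reads (y axis, log scale) against wild-type reads at the summit (x axis, log scale) for the 178 shared wild-type sites; red points have a background of at least 10 reads, grey points less, and solid lines are the medians of each group. The red points lie below 1 with a median of 0.659, and the grey points scatter on both sides of 1 with a median of 0.985.

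At the borders of the interior the values were ordinary. The closest double-knockout site inside, chr17:5000735-5001234, lay 0.984 kb past the border with a fold of 5.01 and 16 reads. The closest outside, chr16:85346604-85347036, lay 8.48 kb beyond it with a fold of 4.35 and 18 reads. In wild type the closest inside was chr16:85182988-85183309 in GSE1, at 155 kb with 12 reads, and the closest outside chr16:85360961-85361232, at 22.8 kb with 14 reads.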

How the data were processed

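DPC-Seq libraries of HEK293T genomic DNA were read from 1 deposited site list per genotype on hg38. The submitters' processing notes name MACS2, Bowtie2, deepTools and bedtools. Their versions and settings, how libraries were combined, and the input used as control: not given in the sources used here. The deposited score of a site equals 10 times its −log10 q rounded down, tested on every row. The deposited fold is a ratio of summit reads to background, and the deposited −log10 p and −log10 q are the caller's, with a largest q of 0.0450 (wild type) and 0.0489 (double knockout). These values are the authors'.

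Whole reads and background were recovered from fold, taken as reads plus 1 over background plus 1, and −log10 p, taken as a Poisson tail, within 0.001 at 100% of sites, and the recovery was tested on simulated data. The lowest background was 0.740 reads (wild type) and 1.25 reads (double knockout). Sites were placed by midpoint in 1 Mb windows, arms and genes of the RefSeq table of GRCh38.p14, and sites of the lists were shared at 1 bp of overlap. Intervals are exact Poisson, Clopper-Pearson and conditional rate-ratio intervals. No test between genotypes was run. Python 3.11.15, NumPy 2.4.6, pandas 2.3.3, SciPy 1.17.1 and matplotlib 3.10.9 were used.

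Genes were named when they held at least 3 sites in a list, held a site among the 10 highest −log10 q, belonged to a fixed gene list and held a site, or had a promoter window with a site in both lists. Other genes given as hosts of sites in a window, at a promoter, at a border or among high ratios fall outside that rule and were chosen after their values were seen. The regions, gene lists and rules were chosen with earlier results of these data known; the limit of 10 reads for a raised background and the ranking without such sites were chosen after seeing the data. Alternatives are given in the closing section.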

Additional observations from a re-analysis of the deposited data

Results flagged for a closer look

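Sequences assigned to chromosome 17 but not placed on it also held sites, which the description above does not use. An unplaced contig of chromosome 17 held 6 wild-type and 6 double-knockout sites. Alternate contigs of chromosome 17 held 5 double-knockout sites and 2 wild-type sites. These were listed because they are signal outside the main chromosome sequence.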

How the results depend on the processing

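Sites with −log10 q of at least 5 numbered 108 (wild type) and 343 (double knockout); 87% and 43.4% of them were shared, and wild-type sites made up 23.9% of both lists. Against the other interiors without chromosomes 1, 19 and 22 the rate ratio was 2.05 for wild type and 1.60 for the double knockout. At 10 Mb from both ends the double-knockout ratio was 1.24. Scaling by depth alone moved the median read ratio to 1.01, a shift fixed by the narrowest site widths of the lists. The cause of the other shifts was not tested, apart from the stricter limit keeping fewer sites. The other alternatives stayed within 1.57 to 1.77 (wild type) and 1.31 to 1.44 (double knockout) for the rate ratio, 72.4% to 76.6% and 28.1% to 32.1% for sharing, and 40.7% to 47.4% and 48.1% to 50.9% for genes. Leaving out sites with a raised background and gene-free stretches was chosen after seeing the data. No paired analysis was possible because each genotype has 1 list and no value per library. With a median of 13 and 17 reads a site, single-site differences under about the width of the printed intervals could not be seen.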
